A study of Mus musculus with 52 samples.

Results

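The genes described here are 33 genes of the response to low oxygen and of glycolysis, picked by symbol from the 56860 gene symbols of the deposited count table, and all 33 were found there. They comprise a glucose transporter and a lactate exporter (Slc2a1, Slc16a3), 12 glycolytic enzymes (Hk2, Gpi1, Pfkl, Pfkp, Aldoa, Aldoc, Tpi1, Pgk1, Pgam1, Eno1, Pkm, Ldha), and 5 regulators of glycolytic and mitochondrial flux (Pfkfb3, Pfkfb4, Pdk1, Ak4, Higd1a). The other members are 5 genes of oxygen sensing, feedback and chromatin (Egln1, Egln3, Kdm3a, Mxi1, Ankrd37), a pair of secreted ligands (Vegfa, Adm), and 7 genes of acid handling, collagen hydroxylation, mitophagy, stress and lipid droplets (Car9, P4ha1, P4ha2, Bnip3, Ndrg1, Ddit4, Hilpda). RNA was sequenced from hCD40tg mice, which carry human CD40 and bore MC38-CEACAM5 tumors, a mouse colon carcinoma line that carries the human tumor antigen CEACAM5. The animals received either ATOR-4066, whose bispecific format binds both CD40 and CEACAM5, or CD40 mAb, which binds CD40 alone, or vehicle. After ATOR-4066 there were 4 whole tumors, 3 samples of CD45+Ly6G- cells (leukocytes other than neutrophils, sorted from tumors), 5 lymph nodes and 4 bloods. After CD40 mAb there were 5, 3, 4 and 5 of these, and after vehicle 4, 4, 4 and 5. Libraries are named by treatment and by the animal number in their titles, and no label other than these titles says that they come from separate animals. No source used here gives the age or sex of the animals, the dose, the interval to sampling or the promoter of the human CD40 transgene.

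A pair of libraries carried markers of a tissue other than their label and were left out, which leaves 50 of 52. On one scaling over all materials, the library labelled lymph node vehicle 3 had a summed B cell marker level of 2.1 CPM (counts scaled to a fixed library size), against 927 to 1803 CPM in the kept lymph nodes, and a summed fibroblast level of 5966 CPM against 202 to 838 CPM. The library labelled tumor ATOR-4066 3 had 1161 CPM of B cell markers, against 2.29 to 48.1 CPM in the kept tumors. Its fibroblast sum of 1674 CPM lay between the kept lymph nodes and the kept tumors, which had 2363 to 7472 CPM. In this library 28 of 33 members were below, and 1 was above, every kept ATOR-4066 tumor. Total counts per library, in units of 1e6, ranged from 30.2 in sorted cells to 138.0 in lymph node. In blood, haemoglobin genes took 69.8 to 88.2% of counts, so that blood values of other genes rest on fewer counts than the totals show. Ptprc, which encodes CD45, was at 654 to 915 CPM in the sorted cells and 51.4 to 282 CPM in the tumors. Ly6g was at 0.0431 CPM or lower in every sorted library and at most 0.235 CPM in the tumors. Being low in both materials, Ly6g cannot show whether the sort removed neutrophils. Summed neutrophil markers were at 165 to 265 CPM in vehicle sorted cells and 28.4 to 41.5 CPM in vehicle tumors, each scaled within its material.

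Under normal oxygen, prolyl hydroxylases such as Egln1 and Egln3 mark the alpha subunits of the hypoxia-inducible factors (HIF) for destruction. When oxygen falls the factors accumulate, pair with Arnt and bind DNA sites with a short core motif, and they raise glucose uptake, glycolysis, lactate export, angiogenic ligands and their own hydroxylases. Tumors often contain poorly perfused regions where these genes are high, and activated myeloid and T cells also raise glycolytic genes under normal oxygen.

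In vehicle-treated animals the members divided between whole tumor and sorted leukocytes. Levels in this paragraph use one scaling over the vehicle libraries of all 4 materials. The mean level was highest in whole tumor for 15 members, in sorted cells for 13, in lymph node for 3 (Pdk1, Ankrd37, Adm) and in blood for 2 (Kdm3a, Mxi1). Between sorted cells and whole tumor, 14 members were called higher and 8 lower in sorted cells (edgeR quasi-likelihood test, adjusted p under 0.05), beside 32.6% of all 19210 genes tested called higher and 40.4% lower, 73.1% in all. The 14 higher members included 8 of the 12 glycolytic enzymes. Pfkfb4, a bifunctional enzyme that sets the level of an activator of phosphofructokinase, averaged 70.5 ± 3.25 CPM in sorted cells and 13.6 ± 1.79 CPM in tumors (SD, n = 4 each), and its log2 change was 2.38 ± 0.10 with its SE (adjusted p = 1.87e-12). The platelet-type phosphofructokinase Pfkp averaged 195 ± 24 CPM in sorted cells and 31.2 ± 7.38 CPM in tumors (log2 change 2.65 ± 0.15, adjusted p = 6.56e-11). Neither gene's ranges overlapped between the materials. Pfkfb3, a paralog of Pfkfb4 with mainly kinase activity, was higher in sorted cells by 1.90 ± 0.12 (adjusted p = 1.93e-10), Aldoc, an aldolase, by 1.84 ± 0.26 (adjusted p = 4.33e-06), and the histone demethylase Kdm3a by 1.02 ± 0.14 (adjusted p = 2.86e-06). The 8 members lower in sorted cells were P4ha2, Ndrg1, Car9, Adm, the flux regulators Ak4 and Higd1a, and the glycolytic enzymes Pgam1 and Pgk1. P4ha2, a collagen prolyl 4-hydroxylase subunit, averaged 3.28 ± 0.817 CPM in sorted cells and 54.3 ± 24.2 CPM in tumors (log2 change -4.04 ± 0.42, adjusted p = 2.93e-07). Adm, which encodes the vasodilator adrenomedullin, differed by -3.53 ± 0.32 (adjusted p = 2.36e-08), and Ndrg1, a stress-response gene, by -1.84 ± 0.28 (adjusted p = 2.26e-05).

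Whole tumor against lymph node had 24 members higher and 5 lower, beside 35.6% and 32.5% of all genes, 68.1% in all. P4ha1, the paralog of P4ha2, was at 126 ± 35.4 CPM in vehicle tumors and 22 ± 7.48 CPM in vehicle lymph nodes (SD, n = 4 each, log2 change 2.52 ± 0.22, adjusted p = 4.33e-08). P4ha2 was higher in tumor by 3.84 ± 0.42 (adjusted p = 6.74e-07), and Ak4, a mitochondrial adenylate kinase, by 3.45 ± 0.43 (adjusted p = 2.47e-06). The enzymes Pgk1, Pgam1 and Pkm were higher in tumor by 1.54 ± 0.19, 1.53 ± 0.15 and 1.26 ± 0.15 (adjusted p = 2.03e-06, 1.01e-07 and 7.02e-07). Pfkfb3 went the other way, at -1.26 ± 0.12 (adjusted p = 5.04e-08). With the left-out lymph library, in the joint fit of the vehicle libraries of all 4 materials, 17 members were higher and 4 lower in tumor against lymph node, and 13 higher and 6 lower in sorted cells against tumor. Calls over all genes fell too, from 13087 to 9287 in tumor against lymph node and from 14036 to 12663 in sorted cells against tumor. In tumor against lymph node the call of Pfkfb4, which was 0.78 ± 0.09 (adjusted p = 1.14e-06), was lost at 0.44 (adjusted p = 0.0753). Per kilobase of exon, the most abundant members in vehicle sorted cells were Pkm at 244 CPM per kb and Aldoa at 225 CPM per kb, and in vehicle tumors Pgk1 at 196 CPM per kb and Pgam1 at 188 CPM per kb.

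Promoters of 5 genes that were called in sorted cells of ATOR-4066-treated animals are printed because they span the sensing, matrix and lipid droplet roles and hold the HIF core motif. They come from RefSeq on GRCm38.p6 and run 5′ to 3′ from 250 bases before to 50 bases after the annotated start. Capitals mark each match to ACGTG or GCGTG on either strand, so that CACGT and CACGC are marked too, and neighbouring matches may overlap. Egln1 lies at chr8:124949205-124949504 (minus strand), Egln3 at chr12:54203825-54204124 (minus), Ankrd37 at chr8:45999801-46000100 (minus), P4ha2 at chr11:54100674-54100973 (plus) and Hilpda at chr6:29272238-29272537 (plus).
Egln1: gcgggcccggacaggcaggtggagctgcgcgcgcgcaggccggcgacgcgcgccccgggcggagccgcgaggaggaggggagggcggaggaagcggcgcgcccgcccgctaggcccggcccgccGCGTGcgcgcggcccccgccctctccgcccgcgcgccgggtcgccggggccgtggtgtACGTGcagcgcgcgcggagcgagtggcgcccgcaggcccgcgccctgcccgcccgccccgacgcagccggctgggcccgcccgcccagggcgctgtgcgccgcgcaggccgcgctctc
Egln3: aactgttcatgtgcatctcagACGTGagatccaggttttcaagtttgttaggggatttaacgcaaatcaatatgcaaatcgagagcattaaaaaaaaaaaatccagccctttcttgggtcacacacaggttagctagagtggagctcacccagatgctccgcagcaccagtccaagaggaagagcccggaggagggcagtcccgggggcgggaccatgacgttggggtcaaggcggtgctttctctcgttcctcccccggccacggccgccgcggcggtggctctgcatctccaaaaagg
Ankrd37: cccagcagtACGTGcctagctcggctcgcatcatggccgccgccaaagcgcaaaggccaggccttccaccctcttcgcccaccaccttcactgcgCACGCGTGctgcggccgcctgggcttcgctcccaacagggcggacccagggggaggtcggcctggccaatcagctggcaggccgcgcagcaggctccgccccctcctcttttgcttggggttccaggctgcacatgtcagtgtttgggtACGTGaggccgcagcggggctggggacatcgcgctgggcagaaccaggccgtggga
P4ha2: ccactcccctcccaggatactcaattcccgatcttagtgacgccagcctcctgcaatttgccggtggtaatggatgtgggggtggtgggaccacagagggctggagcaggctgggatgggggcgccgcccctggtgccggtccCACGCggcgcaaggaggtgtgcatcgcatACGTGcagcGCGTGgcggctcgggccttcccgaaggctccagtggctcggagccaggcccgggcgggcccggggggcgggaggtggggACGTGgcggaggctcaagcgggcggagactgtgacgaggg
Hilpda: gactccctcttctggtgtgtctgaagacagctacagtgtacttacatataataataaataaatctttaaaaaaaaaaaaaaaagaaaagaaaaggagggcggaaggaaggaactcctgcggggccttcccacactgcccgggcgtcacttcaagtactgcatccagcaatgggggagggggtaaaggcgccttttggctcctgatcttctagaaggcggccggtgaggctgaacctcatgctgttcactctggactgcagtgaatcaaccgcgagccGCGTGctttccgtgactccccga
Ankrd37 and P4ha2 hold 4 matches each, Egln1 holds 2, and Egln3 and Hilpda hold 1 each. Of the 33 members, 32 had a promoter in the table, and 26 of these 32 (81.2%) held at least 1 match, against 43.8% of all 27025 promoters of this length. At least 2 matches were in 59.4% of the members' promoters and in 20.8% of all. Ldha holds the most, 7, and Aldoa, Gpi1, Mxi1, Pkm, Tpi1 and Vegfa hold none in this window. A match is a run of letters and not a measured binding site.

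In CD45+Ly6G- tumor cells, ATOR-4066 raised 10 members and lowered 1 relative to vehicle, of 33 tested. All 16647 genes tested gave 6.77% called higher and 5.12% lower (11.9% in all). The sensing and feedback genes carried 4 of the 10 rises, with 4 of their 5 members called higher and a median log2 change of 1.16. The group of acid handling, matrix, stress and lipid droplet genes carried another 4 of 7 (median 1.06), the glycolytic enzymes 2 of 12 (median 0.54), and the single fall was Pfkfb4. The median over all members was 0.59, against -0.02 over all genes tested. In these bulk libraries, fewer cells of a type and less RNA per cell cannot be told apart.

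**Figure D1:**
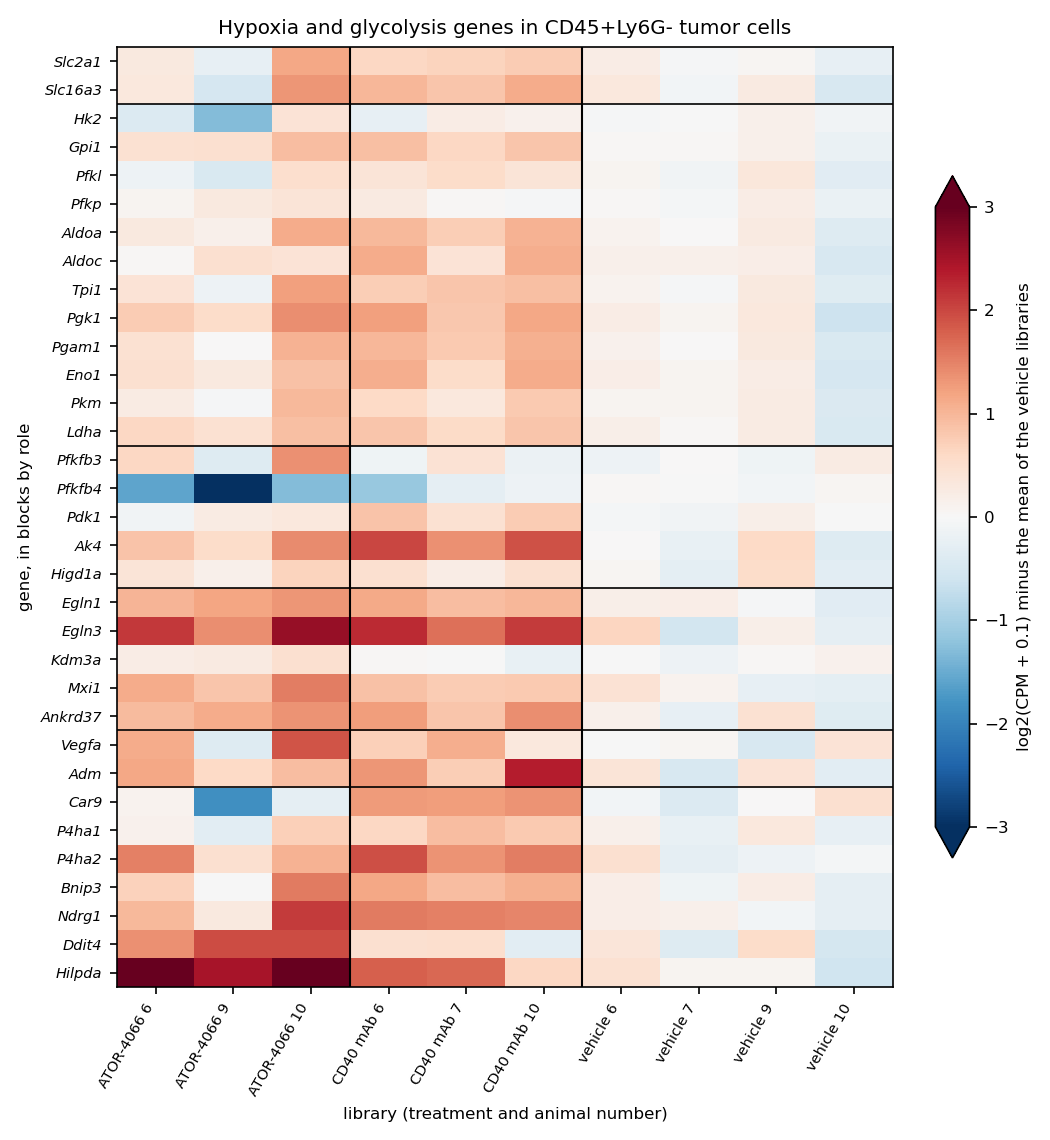
Level of each of the 33 genes (rows, in blocks by role) in each sorted CD45+Ly6G- library (columns), as log2(CPM + 0.1) minus the mean of the 4 vehicle libraries. Egln3 and Hilpda are above vehicle in all 6 treated columns, Pfkfb4 is blue in the 3 ATOR-4066 columns, and ATOR-4066 10 is the highest library for 20 genes.

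Hilpda (ENSMUSG00000043421, chromosome 6, 29272488 to 29275446), whose product blocks the lipase ATGL and so preserves lipid droplets, had the largest change. It measured 90.7, 55.7 and 115 CPM in ATOR-4066 6, 9 and 10, against 13.6, 10.5, 10.5 and 6.51 CPM in vehicle 6, 7, 9 and 10. Every ATOR-4066 library was above every vehicle library. The log2 change was 3.08 ± 0.35 (SE, adjusted p = 0.00487), a fold of 8.46. Ddit4 (ENSMUSG00000020108, chromosome 10, 59949669 to 59951834), an inhibitor of mTORC1 signalling, measured 136, 204 and 204 CPM with ATOR-4066, against 68.2, 40.1, 77.3 and 36.9 CPM with vehicle. The groups did not overlap, and the log2 change was 1.71 ± 0.30 (adjusted p = 0.0115).

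The prolyl hydroxylase Egln1 (ENSMUSG00000031987, chromosome 8, 124908587 to 124949324) was at 158, 179 and 198 CPM with ATOR-4066 and 88.8, 89.7, 77.1 and 61.9 CPM with vehicle, a log2 change of 1.17 ± 0.15 (adjusted p = 0.00545). Its paralog Egln3 (ENSMUSG00000035105, chromosome 12, 54178981 to 54203860) was at 87.4, 53.2 and 124 CPM with ATOR-4066 and 31.6, 13.6, 22.9 and 16.6 CPM with vehicle, a log2 change of 2.05 ± 0.33 (adjusted p = 0.00998). For both hydroxylases the lowest treated library lay above the highest vehicle library, and the lowest treated Egln3 value was ATOR-4066 9. Mxi1, a repressor that competes with Myc for its partner Max, was at 84.3, 69.1 and 113 CPM with ATOR-4066 and 52, 41.7, 32.8 and 31.7 CPM with vehicle (log2 change 1.16 ± 0.20, adjusted p = 0.0106). Ankrd37, a small ankyrin repeat protein known as a HIF target, was at 17.5, 19.5 and 22.9 CPM with ATOR-4066 and 10, 7.61, 12.4 and 6.95 CPM with vehicle (log2 change 1.11 ± 0.22, adjusted p = 0.0156). Neither gene's groups overlapped. The calls of Hilpda, Egln1, Egln3, Mxi1, Ddit4 and Ankrd37 held in all 17 alternatives.

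Pfkfb4 (ENSMUSG00000025648, chromosome 9, 108991778 to 109032228) measured 37, 8.52 and 45.6 CPM with ATOR-4066, against 115, 111, 105 and 116 CPM with vehicle. All 3 treated libraries were below the vehicle libraries, which lay close together, and ATOR-4066 9 was far the lowest. The log2 change was -1.88 ± 0.47 (adjusted p = 0.0322), and it was called in 12 of 17 alternatives. The settings that lost the call included those without vehicle 6, 9 or 10 or ATOR-4066 6. Ndrg1 was at 123, 76.5 and 269 CPM with ATOR-4066 and 72.3, 69.4, 59.1 and 52.2 CPM with vehicle. ATOR-4066 9 was close to the highest vehicle library, and ATOR-4066 10 was far above the rest. Its log2 change was 1.30 ± 0.34 (adjusted p = 0.035), was called in 5 of 17 alternatives, and was 0.64 without ATOR-4066 10.

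The 3 other called members were P4ha2 (1.06 ± 0.28, adjusted p = 0.0369), the chain enzyme Gpi1, which converts glucose 6-phosphate to fructose 6-phosphate (0.63 ± 0.16, adjusted p = 0.0353), and Pgk1, which makes the first ATP of the payoff phase (0.91 ± 0.26, adjusted p = 0.0458). Pgk1 measured 739, 648 and 1163 CPM with ATOR-4066 and 516, 462, 544 and 286 CPM with vehicle. Every treated library exceeded every vehicle library for 14 of 33 members, beside 14.2% of all genes. ATOR-4066 10 was above every vehicle library for 31 members, ATOR-4066 6 for 23 and ATOR-4066 9 for 17, so the treated libraries differed among themselves. Without ATOR-4066 10 the median over the members was 0.23. The count of called members was 6 without ATOR-4066 6 or vehicle 10, and 7 without ATOR-4066 10 or vehicle 6, 7 or 9. These counts are given without the share of all genes in the same fits.

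The makeup of the sorted cells moved with treatment. All 8 T cell markers were called higher with ATOR-4066, with summed levels of 1759 to 4519 CPM against 659 to 1005 CPM with vehicle. Macrophage markers summed to 468 to 2724 CPM with ATOR-4066 and 4102 to 5388 CPM with vehicle (3 of 8 called lower), and monocyte markers to 1483 to 3598 CPM and 4509 to 5496 CPM (2 of 5 called lower). ATOR-4066 9 had the lowest macrophage sum and 373 CPM of B cell markers, against at most 19.2 CPM in the other sorted libraries, and ATOR-4066 6 had an erythroid sum of 5872 CPM against 33.6 to 358 CPM. No marker of these lists was at 0 in all libraries. The part of these shifts in the changes of the hypoxia and glycolysis genes was not tested.

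With CD40 mAb, 6 members rose in the sorted cells and none was called lower, beside 0.541% of all genes higher and 0.559% lower (1.1% in all). These libraries are compared with the same vehicle libraries as those of ATOR-4066. The calls were Egln1 and Egln3, Ankrd37, P4ha2, Ak4 and Pdk1, a kinase that inhibits pyruvate dehydrogenase and so limits the conversion of pyruvate to acetyl-CoA. Egln1 was at 173, 149 and 156 CPM in CD40 mAb 6, 7 and 10, against the vehicle values given above (log2 change 1.01 ± 0.15, adjusted p = 0.0257). Egln3 was at 95.4, 63.6 and 86.2 CPM with CD40 mAb (1.94 ± 0.33, adjusted p = 0.036). All 3 treated libraries were above the vehicle libraries for both. Ak4 measured 24.5, 15.8 and 22.9 CPM with CD40 mAb, against 6.08, 5.12, 9.16 and 4.58 CPM with vehicle (1.75 ± 0.29, adjusted p = 0.0335). P4ha2 measured 19.6, 13.2 and 14.9 CPM with CD40 mAb, against 7.09, 4.24, 4.58 and 4.87 CPM with vehicle (1.61 ± 0.28, adjusted p = 0.036). Neither gene's groups overlapped.

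Pdk1 measured 115, 87.8 and 108 CPM with CD40 mAb, against 61.8, 59.3, 72 and 63.2 CPM with vehicle (0.69 ± 0.14, adjusted p = 0.0482), and Ankrd37 measured 21.7, 16.2 and 23.8 CPM with CD40 mAb (1.15 ± 0.22, adjusted p = 0.0461). Treated and vehicle libraries were apart for both. The median over the members was 0.81, and all 12 glycolytic enzymes had positive log2 changes, between 0.05 and 1.04, with none called. Every CD40 mAb library was above every vehicle library for 25 of 33 members, beside 9.87% of all genes. The members outside these 25 were Higd1a, Vegfa, Ddit4, Pfkp, Kdm3a, Hk2 and Pfkfb3, which overlapped, and Pfkfb4, which was at 50.7, 92.6 and 101 CPM and below every vehicle library (-0.45, not called). T cell markers summed to 315 to 641 CPM with CD40 mAb and 659 to 1005 CPM with vehicle, and macrophage markers to 4029 to 8519 CPM and 4102 to 5388 CPM, with 0 of 8 called in each list. Their part in the result was not tested. The count of 6 moved with single libraries. Leaving out CD40 mAb 6 or 10, or vehicle 6 or 10, took it to 0. It was 1 without vehicle 9, 2 without ATOR-4066 6, 3 without vehicle 7, 10 without ATOR-4066 10 and 19 without ATOR-4066 9. Calls over all genes in these fits are not given here, so the counts do not show whether members moved more than other genes. With DESeq2 the count was 20, beside 8.14% of all genes.

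**Figure D2:**
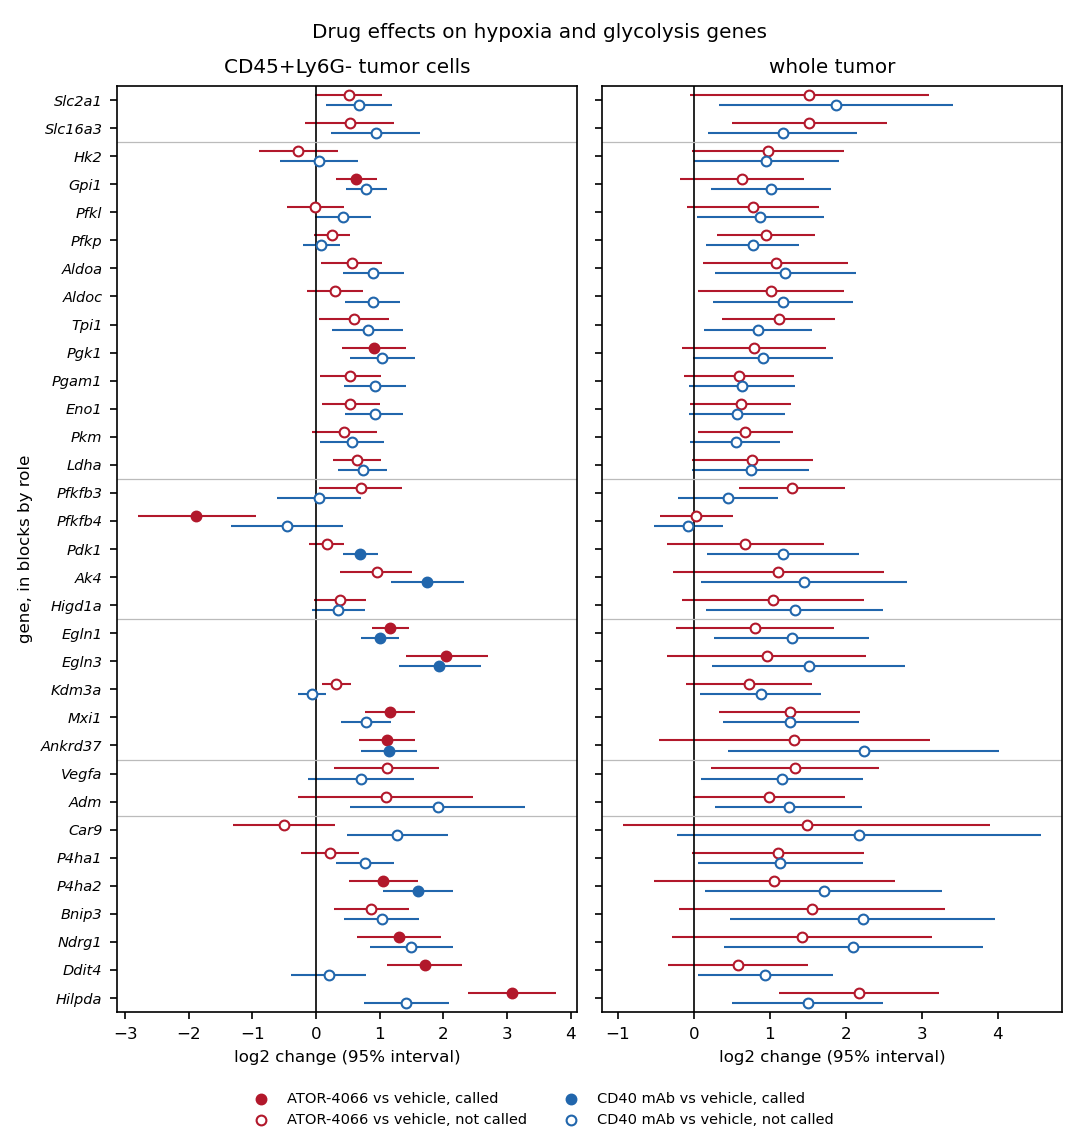
Log2 change of each of the 33 genes (rows, in blocks by role) with its 95% interval, for ATOR-4066 (red) and CD40 mAb (blue) against vehicle, in sorted cells (left) and whole tumor (right); filled points were called at adjusted p under 0.05. In sorted cells Hilpda (3.08 with ATOR-4066) and Pfkfb4 (-1.88) mark the extremes, while in whole tumor nearly all points lie right of 0 with wide intervals and none is filled.

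The direct comparison of ATOR-4066 with CD40 mAb in sorted cells separated 3 members, 2 higher and 1 lower, beside 5.29% and 2.96% of all genes (8.24% in all), a share near that of all genes. Ddit4 was at 136, 204 and 204 CPM with ATOR-4066 and 73.7, 75.3 and 42.2 CPM with CD40 mAb (log2 change 1.51 ± 0.33, adjusted p = 0.028). Hilpda was at 90.7, 55.7 and 115 CPM with ATOR-4066 and 34.5, 32.9 and 15.3 CPM with CD40 mAb (1.66 ± 0.37, adjusted p = 0.0296). The treatments did not overlap for either gene. Car9, a membrane carbonic anhydrase that handles acid outside the cell, was lower with ATOR-4066, at 4.36, 1.05 and 3.29 CPM against 9.85, 9.75 and 10.4 CPM with CD40 mAb (-1.79 ± 0.45, adjusted p = 0.0392). The CD40 mAb values lay close together and above all others, vehicle included, which was at 3.8, 3, 4.07 and 5.6 CPM. The glycolytic enzymes had a median of -0.27 with none called. All 8 T cell markers were called higher with ATOR-4066 (sums of 1759 to 4519 CPM against 315 to 641 CPM with CD40 mAb), and 3 of 8 macrophage markers (468 to 2724 CPM against 4029 to 8519 CPM) and 1 of 5 monocyte markers were called lower. Their part in these differences was not tested. Leaving out CD40 mAb 7 or 10 took the count of 3 to 0, leaving out CD40 mAb 6 took it to 1, and leaving out ATOR-4066 10 took it to 12. Shares of all genes with a library left out are not given here. In a fit of ATOR-4066 and CD40 mAb libraries alone, none of the 3 was called, and calls over all genes fell to 0.0196%.

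**Figure D3:**
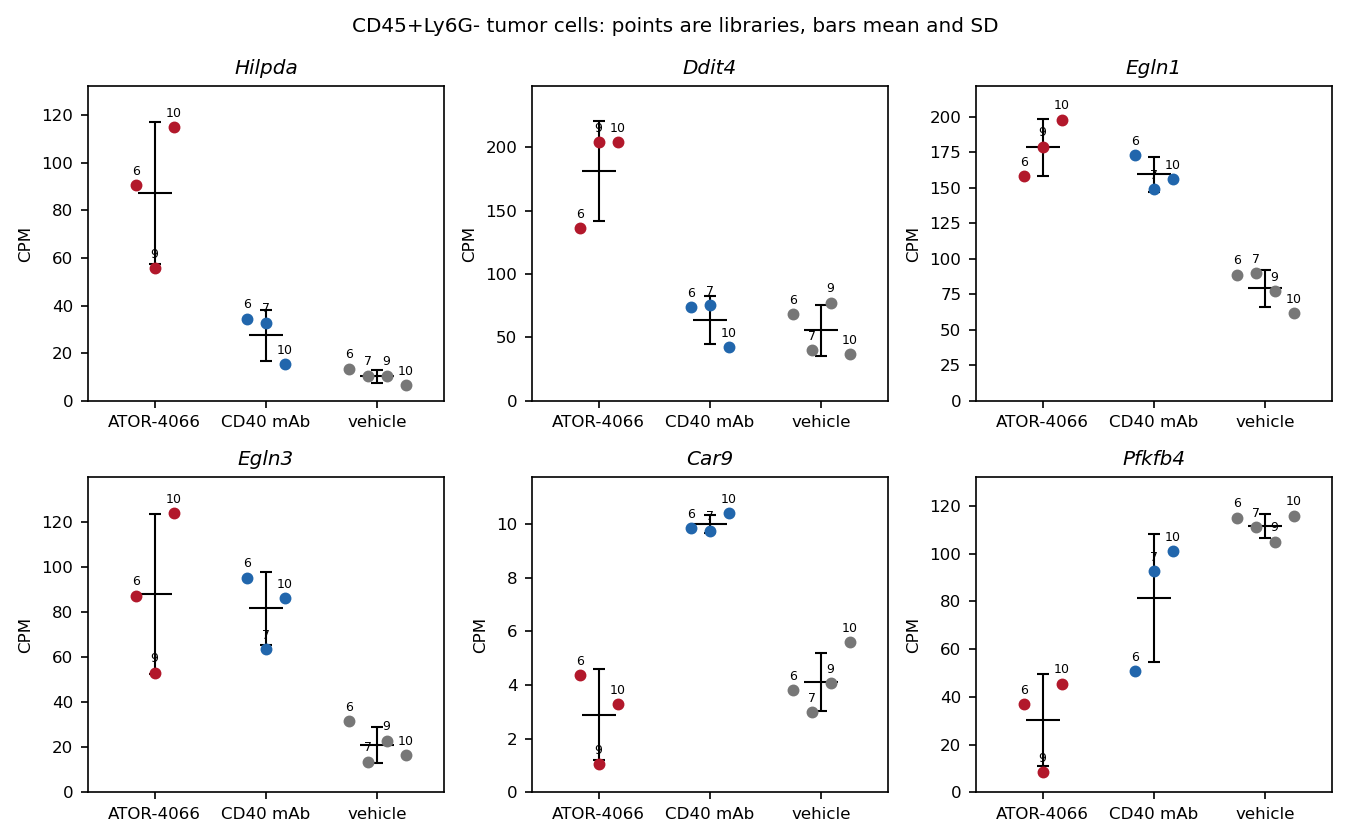
CPM of Hilpda, Ddit4, Egln1, Egln3, Car9 and Pfkfb4 in sorted CD45+Ly6G- cells, 1 panel a gene, with each point 1 library labelled by animal number and bars showing mean and SD. Hilpda and Ddit4 stand apart in the 3 ATOR-4066 libraries (55.7 to 115 CPM and 136 to 204 CPM), Car9 in the 3 CD40 mAb libraries (9.75 to 10.4 CPM), and the hydroxylases in both treatments.

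In whole tumor none of the 33 members was called with ATOR-4066, although every one had a positive log2 change, with a median of 1.01 and a range of 0.03 to 2.17. Over all 18436 genes tested the median was 0.02, and 1.32% were called. At an unadjusted p under 0.05 edgeR gave 8 members, beside 24.7% of all genes. At adjusted p under 0.05 DESeq2 gave 4 members, beside 11.8% of all genes, and voom with sample weights gave 7, beside 25.2%. These edgeR, DESeq2 and voom counts were near or below the share of all genes. A fit of only the ATOR-4066 and vehicle tumors, which leaves the spread of the CD40 mAb tumors out, gave 18 of 33, beside 22.6% of all genes. The largest medians by role were in glucose uptake and lactate export (1.52) and in the group of acid handling, matrix, stress and lipid droplet genes (1.42), and that of the glycolytic enzymes was 0.79. Leaving out CD40 mAb 1 or 2 gave 1 edgeR call, and leaving out CD40 mAb 5 gave 2. The counts with a CD40 mAb tumor left out are given without the share of all genes in the same fits. They therefore do not show whether members were called more often than other genes there. With the left-out ATOR-4066 library no member was called in tumors, and the medians were 0.84 for ATOR-4066, 1.17 for CD40 mAb and -0.23 for ATOR-4066 against CD40 mAb.

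Hilpda measured 64.4, 126, 61.3 and 47.8 CPM in ATOR-4066 tumors 1, 2, 4 and 5, against 17.3, 19.8, 14.6 and 15.1 CPM in vehicle tumors 1, 2, 4 and 5. All 4 treated tumors were above the vehicle tumors (log2 change 2.17 ± 0.54, adjusted p = 0.0561). Pfkfb3 measured 114, 172, 201 and 71.2 CPM with ATOR-4066 and 63.6, 66.8, 52.3 and 45.6 CPM with vehicle (1.29 ± 0.36, adjusted p = 0.0702). The triose phosphate isomerase Tpi1 measured 695, 674, 1021 and 960 CPM with ATOR-4066 and 383, 488, 313 and 358 CPM with vehicle (1.12 ± 0.38, adjusted p = 0.103). Neither gene overlapped between the groups. Such separation held for 11 of 33 members, namely these 3 with Slc2a1, Slc16a3, Hk2, Pfkp, Aldoc, Pkm, Mxi1 and Vegfa, beside 12.6% of all genes. Slc2a1, the main glucose transporter GLUT1, measured 282, 230, 571 and 402 CPM with ATOR-4066 and 153, 210, 82.9 and 70.1 CPM with vehicle. Its log2 change was 1.52 ± 0.80 (adjusted p = 0.256).

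The CD40 mAb tumors fell into unlike libraries. CD40 mAb 1 and 4 were above every vehicle tumor for 32 and 31 of 33 members, CD40 mAb 5 for 12, and CD40 mAb 2 and 3 for none. The median log2 level relative to the vehicle mean was 2.09 and 1.80 in CD40 mAb 1 and 4, 0.23 in CD40 mAb 5, and -0.32 and -0.15 in CD40 mAb 2 and 3. ATOR-4066 tumors 1, 2, 4 and 5 stood at 0.72, 0.37, 1.22 and 1.21, and vehicle tumors 1, 2, 4 and 5 at 0.05, 0.45, -0.38 and -0.32. A further measure of spread took each library's median deviation from the mean of its own treatment. Its SD, pooled over treatments, was 0.754 in tumors, 0.294 in sorted cells, 0.152 in lymph nodes and 0.126 in blood. Car9 shows the split, at 433, 17.5, 25.9, 453 and 33.9 CPM in CD40 mAb tumors 1 to 5, against 50.5, 83.4, 24.9 and 11.7 CPM in vehicle tumors. ATOR-4066 tumors had 18.8, 6.79, 210 and 243 CPM of Car9, so that tumors 4 and 5 were high and tumors 1 and 2 were not.

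**Figure D4:**
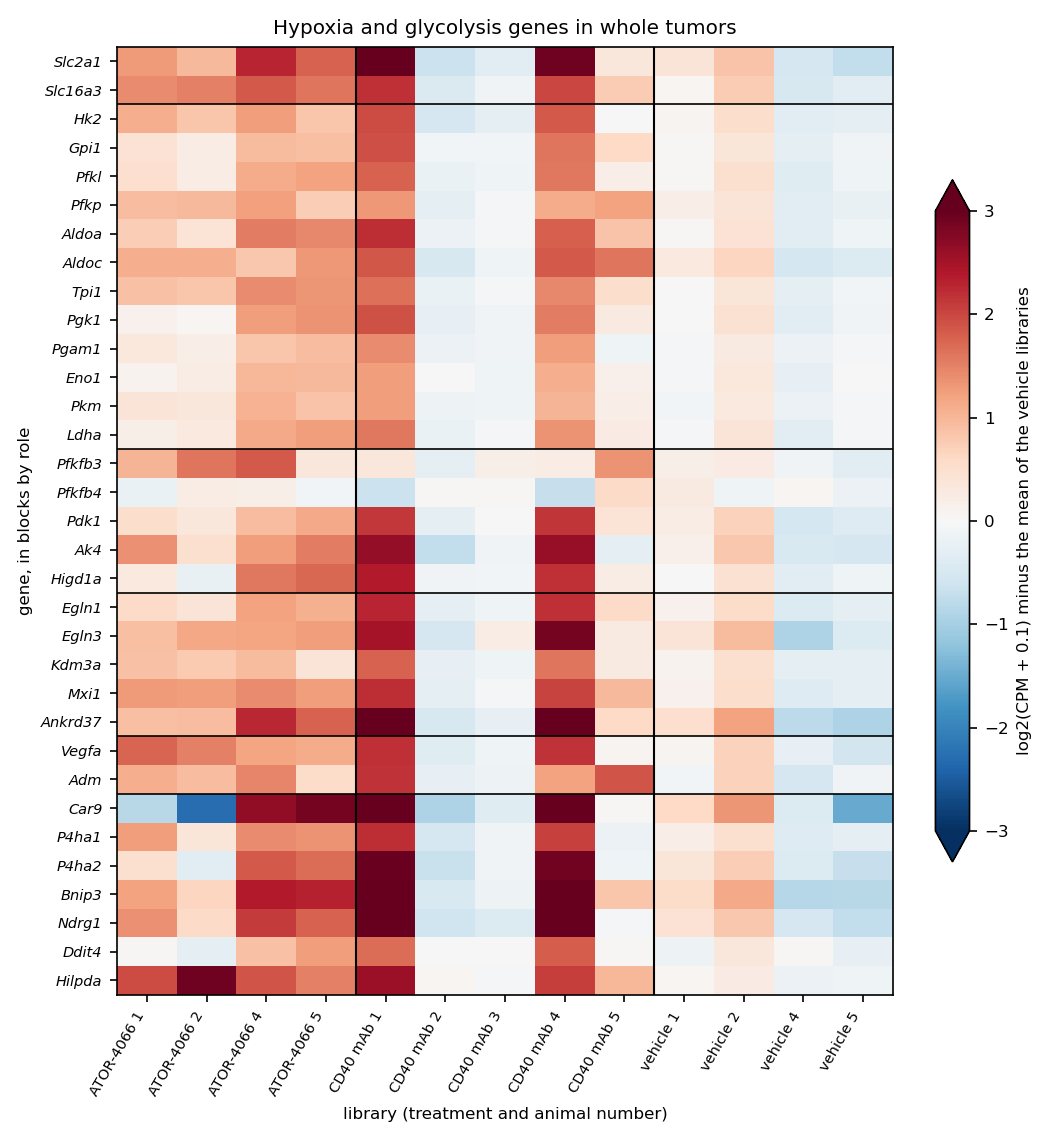
Level of each of the 33 genes (rows, in blocks by role) in each whole tumor library (columns), as log2(CPM + 0.1) minus the mean of the 4 vehicle libraries. CD40 mAb 1 and 4 are red in nearly every row and CD40 mAb 2 and 3 in almost none, and most values of the ATOR-4066 tumors lie between.

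Over the 5 CD40 mAb tumors no member was called, with 32 positive and 1 negative log2 change and a median of 1.17. In this comparison 0% of all genes were called by edgeR, and 2201 genes (11.9%), 18 of them members, had an unadjusted p under 0.05. DESeq2 and voom also called no member. Hilpda measured 98, 17.3, 16.1, 70.4 and 33.4 CPM with CD40 mAb (1.50 ± 0.51, adjusted p = 0.412). Mxi1 measured 140, 24.8, 29.2, 123 and 59.6 CPM with CD40 mAb and 32.9, 43.6, 23 and 24.8 CPM with vehicle (1.27 ± 0.46, adjusted p = 0.412). The aldolase Aldoa measured 3792, 725, 793, 2865 and 1496 CPM with CD40 mAb and 848, 1107, 653 and 749 CPM with vehicle (1.20 ± 0.47, adjusted p = 0.412). In all 3 genes CD40 mAb 1 and 4 were the highest libraries and CD40 mAb 2 and 3 lay among the vehicle tumors. No member had every CD40 mAb tumor above every vehicle tumor, beside 1.81% of all genes. Leaving out CD40 mAb 1 gave a median of 0.80, leaving out CD40 mAb 4 gave 0.83, and voom sample weights gave 0.32.

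Cell markers differed among the same tumors. CD40 mAb 1 and 4 had the lowest Ptprc levels of the tumors, 51.4 and 52.8 CPM on the scaling over all materials, and T cell sums of 38.7 and 34.1 CPM, against 66 to 170 CPM in vehicle tumors. CD40 mAb 5 had a T cell sum of 1221 CPM, a macrophage sum of 7196 CPM and an epithelial marker sum of 349 CPM. Erythroid markers summed to 158 to 1118 CPM in CD40 mAb tumors and 49.3 to 141 CPM in vehicle tumors, without overlap, and none of the 5 tested was called. In ATOR-4066 tumors the neutrophil markers summed to 52.1 to 227 CPM, against 28.4 to 41.5 CPM in vehicle tumors, and 3 of the 6 tested were called higher. Fibroblast markers summed to 4702 to 9833 CPM in ATOR-4066 tumors and 10813 to 15233 CPM in vehicle tumors, with none of 7 called. The part of these differences in the tumor values was not tested.

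ATOR-4066 and CD40 mAb tumors were not separated for any member, beside 0.0325% of all genes called. DESeq2 and voom called none either, and 1 member had an unadjusted p under 0.05, beside 10.2% of all genes. Pfkfb3 was nearest, with a difference of 0.84 ± 0.33 (95% interval 0.19 to 1.49, adjusted p = 0.423). The difference of Hilpda was 0.67 ± 0.49 (interval -0.28 to 1.62, adjusted p = 0.671) and that of Ankrd37 -0.91 ± 0.86 (interval -2.61 to 0.78, adjusted p = 0.759). These intervals are too wide to show that the drugs act alike, and Ankrd37 turned to 0.85 with voom sample weights.

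Whether a drug effect differed between sorted cells and whole tumor was tested as an interaction. For ATOR-4066, 1 member was called, Pfkfb4, with a log2 change of -1.88 in sorted cells and 0.03 in tumors and a difference of -1.93 ± 0.52 in the joint fit (adjusted p = 0.0257). In tumors Pfkfb4 measured 21.3, 28.6, 27.6 and 23.2 CPM with ATOR-4066 and 29.3, 22.2, 25.3 and 21.6 CPM with vehicle, which overlap. Of all 20198 genes, 8.85% were called, 4.42% higher and 4.43% lower in sorted cells. The call was lost without tumor vehicle 5 (adjusted p = 0.0536). For CD40 mAb no member was called by edgeR or voom, 0 had an unadjusted p under 0.05, and 0.455% of all genes were called. The smallest adjusted p was that of Kdm3a, with a difference of -0.89 ± 0.48 (adjusted p = 0.392). For ATOR-4066 against CD40 mAb none was called with edgeR, beside 5.11% of all genes, and 2 had an unadjusted p under 0.05. Those 2 were Pfkfb4 (-1.58 ± 0.52, adjusted p = 0.0735) and Ddit4 (1.81 ± 0.63, adjusted p = 0.0896). Pfkfb4 was called with voom sample weights, and without tumor CD40 mAb 5, sorted CD40 mAb 6 or sorted ATOR-4066 10. With the left-out tumor library the counts were 1, 0 and 0, beside 1111, 23 and 243 of all genes.

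In lymph node no member was called in any comparison by edgeR. With ATOR-4066 28 of 33 log2 changes were negative, and the median was -0.22. Of all 18652 genes 0% were called, 2953 (15.8%) had an unadjusted p under 0.05, 7 of them members, and DESeq2 and voom called no member. Aldoa measured 446, 539, 453, 399 and 527 CPM in ATOR-4066 1 to 5 and 750, 705, 593 and 526 CPM in vehicle 1, 2, 4 and 5 (-0.45 ± 0.13, adjusted p = 0.221). P4ha2 differed by -0.98 ± 0.38 (adjusted p = 0.264) and Egln3 by -0.50 ± 0.21 (adjusted p = 0.282). Vehicle 1 was the highest lymph node for 14 members. It held 14.1 CPM of P4ha2, against 3.54 to 6.04 CPM in the other vehicle nodes and 2.11 to 4.55 CPM with ATOR-4066. Without it the median was -0.08. Vehicle 1 also had the highest fibroblast sum of the nodes, 1684 CPM where the other vehicle nodes had 771 to 1167 CPM, and the highest macrophage (1122 CPM), erythroid (838 CPM) and epithelial (395 CPM) sums. Monocyte markers summed to 469 to 853 CPM with ATOR-4066 and 545 to 883 CPM with CD40 mAb, all above the 340 to 447 CPM of the vehicle nodes, with none of 5 called. The part of these markers in the lymph node values was not tested.

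CD40 mAb lymph nodes also had no called member, beside 0.0643% of all genes, with 7 members at an unadjusted p under 0.05, beside 23.7% of all genes, and a median of -0.19. Egln1 measured 61.5, 65.6, 62 and 57.7 CPM in CD40 mAb 2 to 5 and 75.6, 74.6, 66.6 and 68.6 CPM with vehicle (-0.21 ± 0.07, adjusted p = 0.11). Pdk1 measured 93, 89.3, 93.6 and 93.1 CPM with CD40 mAb and 126, 109, 101 and 127 CPM with vehicle (-0.33 ± 0.12, adjusted p = 0.142). All 4 treated nodes were below the vehicle nodes for both genes and for Adm, which was at 8.32, 7.12, 7.83 and 8.17 CPM with CD40 mAb and 8.7, 9.49, 9.32 and 9.85 CPM with vehicle. These were 3 of 33 members, beside 9.47% of all genes, a share near that of all genes. Egln3 differed by -0.67 ± 0.22 (adjusted p = 0.11) and was the 1 member that DESeq2 called, beside 9.91% of all genes (voom called 0). The median was -0.03 without vehicle 1. ATOR-4066 against CD40 mAb gave no called member, beside 0.0161% of all genes, with 3 at an unadjusted p under 0.05 (9.32% of all genes) and 0 by DESeq2 and voom. The smallest p-values were those of Gpi1 (-0.19 ± 0.07, adjusted p = 0.394), Pgk1 (-0.38 ± 0.16, adjusted p = 0.506) and Higd1a, a mitochondrial respiratory chain factor (-0.20 ± 0.09, adjusted p = 0.529). With the left-out vehicle library no member was called in lymph node, and the medians were -0.33, -0.18 and -0.1.

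In blood Ak4, Adm, Car9 and P4ha2 did not pass the filter on low counts, which leaves 29 members. CD40 mAb raised 6 of them and lowered 1, beside 22.2% of all 12176 genes called higher and 12.4% lower (34.7% in all), so the members' share was not above that of all genes. The Myc antagonist Mxi1 measured 62.7, 279, 195, 359 and 194 CPM in CD40 mAb 1 to 5, against 39.1, 44.7, 50.4, 39.6 and 35.3 CPM in vehicle 1 to 5. All 5 treated libraries were above the vehicle libraries, CD40 mAb 1 only slightly (log2 change 2.38 ± 0.34, adjusted p = 0.000111). The lactate exporter Slc16a3 measured 4.9, 10.2, 10.6, 15.1 and 23.2 CPM with CD40 mAb and 3.52, 5.44, 4.79, 6.34 and 4.75 CPM with vehicle (1.35 ± 0.31, adjusted p = 0.00375). CD40 mAb 1 lay among the vehicle values and the other 4 lay above them. Tpi1 measured 15.6, 20.7, 22.6, 28.6 and 16.6 CPM with CD40 mAb and 11.2, 13.1, 11.8, 12.1 and 9.87 CPM with vehicle, with no overlap (0.84 ± 0.19, adjusted p = 0.00313).

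Smaller rises were called for Pfkfb4 (0.61 ± 0.18, adjusted p = 0.0172), for the pyruvate kinase Pkm (0.54 ± 0.19, adjusted p = 0.0377) and for the lactate dehydrogenase Ldha (0.44 ± 0.12, adjusted p = 0.0114). Ldha measured 19.3, 25.4, 21.4, 22.8 and 24.8 CPM with CD40 mAb and 16.4, 20.3, 16, 16 and 15 CPM with vehicle. Hexokinase 2, Hk2, was the member that fell, at 1.76, 1.7, 2.54, 1.82 and 1.64 CPM with CD40 mAb and 3, 3.04, 2.44, 2.98 and 2.06 CPM with vehicle (-0.51 ± 0.16, adjusted p = 0.0181). The groups overlapped for both genes. The Pfkfb4 call was lost without CD40 mAb 4 or 5, and the Pkm call without CD40 mAb 2, 3 or 4, vehicle 1, 3, 4 or 5, or ATOR-4066 5.

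**Figure D5:**
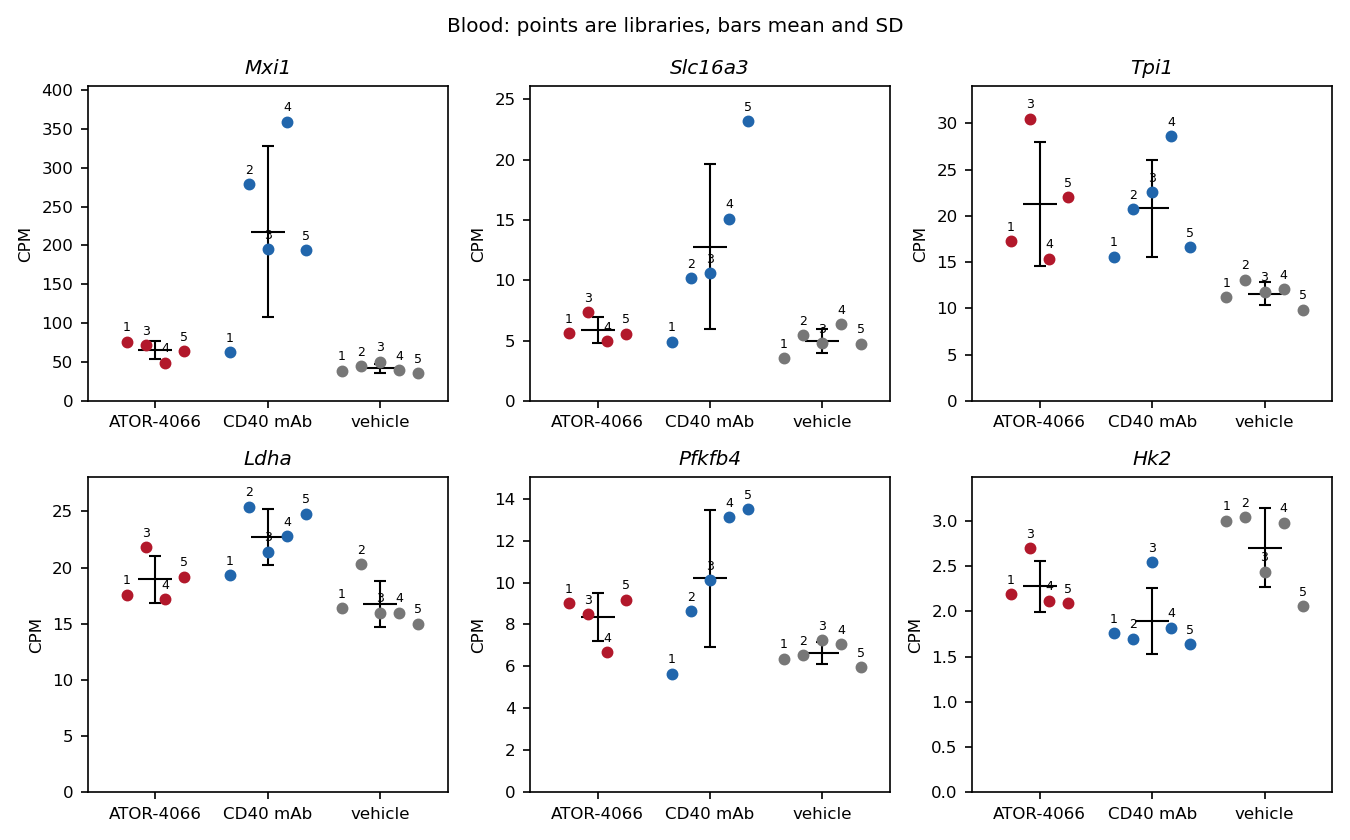
CPM of Mxi1, Slc16a3, Tpi1, Ldha, Pfkfb4 and Hk2 in blood, 1 panel a gene, with each point 1 library labelled by animal number and bars showing mean and SD. CD40 mAb libraries 2 to 5 are the highest for Mxi1 (194 to 359 CPM) and Slc16a3 (10.2 to 23.2 CPM), CD40 mAb 1 lies near vehicle for both, and Hk2 is lower in most CD40 mAb libraries than in vehicle.

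Markers in blood moved as well. All 8 neutrophil markers were called higher with CD40 mAb (sums of 200 to 979 CPM against 100 to 201 CPM with vehicle), as were all 7 erythroid markers, and 5 of 6 B cell markers were called lower (100 to 256 CPM against 256 to 317 CPM). Haemoglobin genes took 77.5 to 81.2% of counts with CD40 mAb, 78.1 to 88.2% with ATOR-4066 and 69.8 to 76.0% with vehicle. With haemoglobin genes removed before scaling, 7 members were called with CD40 mAb, as many as with these genes kept, where 34.7% of all genes were called. This removal changes the scaling but leaves all other red cell transcripts in place, so it cannot show the part of red cells. The part of these markers, the erythroid ones included, was not tested.

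With ATOR-4066 no blood member was called, beside 0.443% of all genes, with 7 at an unadjusted p under 0.05 (15% of all genes), 2 called by DESeq2 (3.31% of all genes) and 4 by voom (7.74%). Tpi1 was nearest, at 17.3, 30.5, 15.4 and 22 CPM in ATOR-4066 1, 3, 4 and 5 and above every vehicle library (0.87 ± 0.20, adjusted p = 0.0649). Ndrg1 measured 23.2, 35.7, 16.1 and 30.1 CPM with ATOR-4066 and 13.6, 17, 17.9, 16.4 and 11.6 CPM with vehicle (0.78 ± 0.23, adjusted p = 0.127), and the log2 change of Aldoa was 0.49 ± 0.19 (adjusted p = 0.232). Tpi1 was called without CD40 mAb 1 or 4 or ATOR-4066 4. ATOR-4066 3 was the highest of all blood libraries for 9 members, Tpi1 and Ndrg1 among them. It also had the highest haemoglobin share, 88.2%, and a fibroblast sum of 25.4 CPM, against 0.0853 to 0.469 CPM in vehicle blood. Without it the log2 change of Tpi1 was 0.65 (adjusted p = 0.336). Erythroid markers summed to 696521 to 1432716 CPM with ATOR-4066 and 304581 to 471303 CPM with vehicle, without overlap and with none of 7 called (on TMM-scaled library sizes a sum can pass 1e6). The part of these markers was not tested. ATOR-4066 against CD40 mAb gave 2 members, both lower with ATOR-4066, beside 2.3% of all genes higher and 10.8% lower (13.1% in all). They were Mxi1, at 76.3, 71.7, 49.1 and 64.1 CPM with ATOR-4066 (-1.74 ± 0.36, adjusted p = 0.00562), and Slc16a3, at 5.62, 7.38, 4.93 and 5.59 CPM with ATOR-4066 (-1.12 ± 0.33, adjusted p = 0.0378). In both, CD40 mAb libraries 2 to 5 were above every ATOR-4066 library and CD40 mAb 1 was not. In this comparison 4 of 8 neutrophil markers (127 to 325 CPM with ATOR-4066 and 200 to 979 CPM with CD40 mAb) and 3 of 7 erythroid markers were called lower and 2 of 6 B cell markers higher, and their part was not tested. Without CD40 mAb 1 the count was 6. It was 1 without CD40 mAb 4 or 5, ATOR-4066 1, 4 or 5, or vehicle 3. Both counts are given without the share of all genes in those fits.

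A further list held other genes of the pathway, of which 36 were found. In sorted cells ATOR-4066 raised 10 and lowered 2 of the 35 tested, beside 6.77% and 5.12% of all genes. The neuronal-type glucose transporter Slc2a3 measured 195, 280 and 135 CPM with ATOR-4066, against 31.5, 39.8, 25.2 and 24.2 CPM with vehicle (2.75 ± 0.32, adjusted p = 0.00487). Bhlhe40, a transcriptional repressor, measured 643, 893 and 564 CPM with ATOR-4066, against 174, 195, 125 and 156 CPM with vehicle (2.11 ± 0.25, adjusted p = 0.00487). Both were highest in ATOR-4066 9, the library with the most T cell markers, and both were also above CD40 mAb, by 2.09 ± 0.35 (adjusted p = 0.0144) and 1.25 ± 0.27 (adjusted p = 0.0252). The mitophagy receptor Bnip3l rose by 0.75 ± 0.13 (adjusted p = 0.0107). Slc2a6, a glucose transporter family member of lysosomes, was lower with ATOR-4066 than with CD40 mAb, by -1.86 ± 0.35 (adjusted p = 0.0191), and that comparison called 4 higher and 1 lower of 35, beside 5.29% and 2.96% of all genes. With CD40 mAb 1 of 35 was called in sorted cells, beside 1.1% of all genes, the cytokine Mif (0.99 ± 0.20, adjusted p = 0.0482).

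In tumors 1 of the 36 was called with ATOR-4066, beside 1.32% of all genes, the lipid droplet coat gene Plin2. It measured 805, 1094, 558 and 450 CPM with ATOR-4066 and 212, 261, 212 and 249 CPM with vehicle, without overlap (1.64 ± 0.31, adjusted p = 0.0406). None was called in tumors with CD40 mAb or in any lymph node comparison by edgeR. At an unadjusted p under 0.05 there were 14 of 36 in CD40 mAb tumors (11.9% of all genes), 9 in ATOR-4066 lymph nodes (15.8%) and 15 in CD40 mAb lymph nodes (23.7%). In blood CD40 mAb raised 13 of 29 and lowered none, beside 22.2% of all genes higher and 12.4% lower. Among them were Bnip3l, at 1555, 4587, 3186, 5412 and 3865 CPM with CD40 mAb and 604, 666, 805, 497 and 579 CPM with vehicle (2.56 ± 0.35, adjusted p = 0.0001), and Bpgm, the red cell enzyme that makes 2,3-bisphosphoglycerate (2.35 ± 0.38, adjusted p = 0.000228). The lactate transporter Slc16a1 rose by 1.39 ± 0.27 (adjusted p = 0.00114). Against CD40 mAb, ATOR-4066 blood had 5 of the 29 lower, beside 10.8% of all genes, with Bnip3l at -1.78 ± 0.36 (adjusted p = 0.00562).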

How the data were processed

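The authors deposited one gene table of salmon's estimated counts, as its name says, and its column sums differ between libraries, so these counts carry no scaling for depth. Per the submitters' processing notes, STAR (version given as 5.1) and build GRCm38 were used, and per the labels' protocols libraries were made with a stranded mRNA kit. No source used here gives the gene annotation or quantification settings. Estimated counts, 11% of them fractional, were rounded and summed by symbol (57010 identifiers, 56860 symbols). Aldoa is on 2 identifiers, the second with 0.0605% of its counts, and reads of Eno1 may be shared with its near-identical copy Eno1b. Positions and exon lengths are from GENCODE vM21.

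Each material was fitted with its 3 treatments in edgeR 4.0.16 (R 4.3.3; filterByExpr with count minimum 10 and total 15, TMM scaling, robust quasi-likelihood F test). Differences of drug effects were fitted over all tumor and sorted libraries, and vehicle materials over the vehicle libraries of all 4 materials. Adjusted p-values are Benjamini-Hochberg over all genes tested, and a gene is called under 0.05. Errors of log2 changes are SE. Levels, unless stated, are CPM from the TMM-scaled library sizes of one material. There were 12 treatment comparisons, 3 of a drug effect between materials and 2 between vehicle materials. The alternatives were DESeq2 1.42.0, voom with sample weights (limma 3.58.1), other scaling and filters, and leaving out each library. The fits were also run on simulated counts with known changes. Those counts had the same spread for every gene and no differences in cell makeup between libraries. They therefore do not test the fits under the spread of these tumors and sorted cells.

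Genes named with full values are those called, at most 8 a comparison by p, or the 3 of smallest p where none was called, and of the further list at most 3 called. Slc2a1, Car9 and Pgk1 and single values elsewhere were added after their values were seen. The members and lists were chosen with earlier results of these data known. No label says that numbers pair libraries of different treatments within a material. The deviations of same-numbered libraries within a material correlated from -0.39 to 0.362. Vehicle tumors and lymph nodes of one number share an animal, as read from the titles, and their deviations correlated from -0.158 to 0.008. This check therefore cannot show whether numbers pair libraries. With the animal as a block 28 members were called in tumor against lymph node, beside 74.4% of all genes. P-values weigh a difference against the spread between libraries, estimated over all groups of the same fit.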

Additional observations from a re-analysis of the deposited data

Results flagged for a closer look

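Single libraries stood apart from their group in 5 of 81 combinations of a named gene and a group that were examined, and chance alone flags about 1 in 20. Pfkfb3 was high in tumor CD40 mAb 5, at 143 CPM, while the other CD40 mAb tumors had 46.4 to 71 CPM. Pdk1 was low in lymph node CD40 mAb 3, at 89.3 CPM, while the other nodes of that group had 93 to 93.6 CPM. Ldha was high in blood vehicle 2, at 20.3 CPM, against 15 to 16.4 CPM. Hk2 was high in blood ATOR-4066 3, at 2.7 CPM against 2.09 to 2.19 CPM, and in blood CD40 mAb 3, at 2.54 CPM against 1.64 to 1.82 CPM.

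The effect of ATOR-4066 on Pfkfb4 differed between sorted cells and whole tumor, with a difference of log2 changes of -1.93. In the left-out library labelled lymph node vehicle 3, 24 of 33 members were above every kept vehicle lymph node and 6 were below, with a median log2 difference of 0.91 from the mean of the kept ones.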

How the results depend on the processing

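Over 1336 values of named genes under the alternatives, 1196 kept their direction and their side of the threshold, 109 lost the call, 30 gained it and 1 reversed. The reversal was Ankrd37 in ATOR-4066 against CD40 mAb tumors, -0.91 by edgeR and 0.85 with voom sample weights. The cause was not tested.

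Counts of called members that moved by over 1.5 times are given next. Percentages in brackets are the share of all genes called in the same fit. Counts with a library left out stand without it, so they cannot show whether members moved more than all genes. In tumors, ATOR-4066 (0) gave 4 with DESeq2 (11.8%), 7 with voom (25.2%), 18 with only the groups compared (22.6%), and 0 to 2 with a library left out. In sorted cells, ATOR-4066 (11) gave 7 with only the groups compared (11.2%) and 6 to 14 with a library left out. CD40 mAb (6) gave 10 without a filter (1.3%), 20 with DESeq2 (8.14%) and 15 with voom (3.88%). It gave 20 with only the groups compared (4.62%) and 0 to 19 with a library left out. ATOR-4066 against CD40 mAb (3) gave 1 without a filter (3.61%), 5 with DESeq2 (17%) and 0 with only the groups compared (0.0196%). It gave 0 to 12 with a library left out. CD40 mAb in lymph node (0) gave 1 with DESeq2 (9.91%). In blood, ATOR-4066 (0) gave 1 without a filter (0.304%), 2 with DESeq2 (3.31%) and 4 with voom (7.74%). It gave 3 with only the groups compared (8.85%) and 0 to 2 with a library left out. ATOR-4066 against CD40 mAb (2) gave 1 without a filter (5.41%), 1 with only the groups compared (7.45%) and 1 to 6 with a library left out. For drug effects in sorted cells minus tumor, ATOR-4066 (1) gave 0 to 1 with a library left out. There ATOR-4066 against CD40 mAb (0) gave 1 with voom (6.18%) and 0 to 1 with a library left out.

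With the replicate number as a block, sorted cells gave 8 members for ATOR-4066 (6.64% of all genes) and 0 for CD40 mAb (0.0841%). ATOR-4066 against CD40 mAb gave 0 there (2.21%). In blood the counts were 6 for CD40 mAb (30.6%) and 0 for ATOR-4066 against CD40 mAb (0.0164%). Within a material no label says that the numbers pair the libraries. The medians over the members in sorted cells under the block were 0.51, 0.79 and -0.20 (0.59, 0.81 and -0.17 without it). The median of ATOR-4066 sorted cells ranged from 0.23 to 0.77, of CD40 mAb sorted cells from 0.75 to 0.93, of ATOR-4066 tumors from 0.84 to 1.25 and of CD40 mAb tumors from 0.32 to 1.43. Groups of 3 to 5 libraries and the spread among tumors limit these comparisons.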
